A study of Mus musculus with 9 samples.

Results

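The Sprouty, Spred and related feedback inhibitors of ERK signalling were examined in 3 mouse stromal cell lines. The set comprises 10 genes, Spry1, Spry2, Spry4, Spred1, Spred2, Il17rd, Dusp4, Dusp6, Etv4 and Etv5. The family was chosen on measured values, because Spry1 and Il17rd had stood out between the lines, so the differences given here describe the arrays and carry no test. All probe sets annotated with exactly 1 of these symbols were used, 21 of the 29131 probe sets with 1 symbol, and the 10 genes are among 15964 genes named in this way. All 10 are protein-coding in the RefSeq annotation of build GRCm38.p6, on chromosomes 3 (Spry1), 14 (Spry2 and Il17rd), 18 (Spry4), 2 (Spred1), 11 (Spred2 and Etv4), 8 (Dusp4), 10 (Dusp6) and 16 (Etv5).

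Cells of some stromal lines sustain blood-forming cells in culture, and others do not. AGM-s3-A9 is a supportive line and OP9 another, while AGM-s3-A7 is non-supportive. Both AGM lines come from the aorta-gonad-mesonephros, the embryonic region where hematopoietic stem cells arise, and OP9 from newborn calvaria. No treatment, genotype or time course is given in the labels. RNA of every line was read on 3 types of Affymetrix array (MG-U74A, MG-U74B, MG-U74C) with 1 array of each, 9 arrays in all. Each value is therefore 1 array of a line, with no replicate error and no p-value, and the number of arrays limits the precision. OP9 differs from both AGM lines in origin as well as from AGM-s3-A7 in supportive capacity, and these cannot be told apart.

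When a growth factor activates a receptor tyrosine kinase, Ras, Raf and MEK relay the signal to the kinase ERK, which switches on target genes. Among these targets are genes whose products restrain the same pathway. Sprouty and Spred proteins act between the receptor and Raf, Il17rd (also called Sef) is a transmembrane inhibitor of fibroblast growth factor (FGF) signalling, and the dual-specificity phosphatases Dusp4 and Dusp6 dephosphorylate ERK itself. Etv4 and Etv5 are transcription factors of the ETS family that are induced by FGF signalling. Transcripts of these genes are commonly read as a trace of ERK activity, which itself was not measured here.

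The regions upstream of the 4 genes that reached a 2-fold difference are shown because the DNA before the start is where ETS factors and Sp1 can act. Of the 10 genes, 7 had an entry among the RefSeq promoter sequences of build GRCm38.p6. Each sequence is the 250 bases before the annotated start, 5′ to 3′ on the gene's strand. Capitals mark the ETS site string CGGAAG and the GC box GGGCGG on either strand. The Spry1 window is chr3:37639697-37639946 (plus strand), that of Spry2 chr14:105896820-105897069 (minus strand), that of Il17rd chr14:27038751-27039000 (plus strand) and that of Dusp6 chr10:99262981-99263230 (plus strand).
Spry1: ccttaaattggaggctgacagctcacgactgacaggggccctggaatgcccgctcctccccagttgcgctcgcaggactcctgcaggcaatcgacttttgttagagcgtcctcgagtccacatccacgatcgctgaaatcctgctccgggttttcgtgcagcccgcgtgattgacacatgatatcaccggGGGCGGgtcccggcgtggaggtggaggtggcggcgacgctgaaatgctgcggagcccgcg
Spry2: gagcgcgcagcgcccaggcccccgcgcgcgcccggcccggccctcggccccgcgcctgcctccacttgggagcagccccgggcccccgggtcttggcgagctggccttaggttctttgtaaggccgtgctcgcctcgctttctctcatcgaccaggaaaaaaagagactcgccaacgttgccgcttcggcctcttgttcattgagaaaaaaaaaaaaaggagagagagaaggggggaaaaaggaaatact
Il17rd: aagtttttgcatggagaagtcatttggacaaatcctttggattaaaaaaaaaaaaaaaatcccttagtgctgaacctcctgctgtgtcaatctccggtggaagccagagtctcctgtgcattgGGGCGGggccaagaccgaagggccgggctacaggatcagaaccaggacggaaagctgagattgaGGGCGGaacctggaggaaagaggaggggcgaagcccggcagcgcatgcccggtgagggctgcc
Dusp6: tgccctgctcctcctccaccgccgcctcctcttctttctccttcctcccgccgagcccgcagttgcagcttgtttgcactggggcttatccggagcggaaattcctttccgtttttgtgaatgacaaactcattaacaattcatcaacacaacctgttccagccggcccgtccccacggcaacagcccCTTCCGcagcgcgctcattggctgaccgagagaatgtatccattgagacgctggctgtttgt

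The 4 upstream regions had no motif in common. Of ETS sites only the exact string CGGAAG was searched, so shorter or variant sites in these windows were not counted. The string was found in the Dusp6 window and in none of the other 3 windows. In the Dusp6 window it lies on the opposite strand with its 6 bases beginning 62 bases before the start. Over all 8 windows of the 7 genes (Etv5 has 2 starts) it was present in 3, those of Dusp6, Spred1 and Spred2, against 13.6% of 32851 windows of the same length. The GC box was present once in the Spry1 window, 2 times in that of Il17rd and not in those of Spry2 and Dusp6. Over all 8 windows it was present in 5, those of Spry1, Il17rd, Spred1 and Spred2 and an Etv5 window, against 32.7% of all windows. An AP-1 site, searched as TGANTCA on both strands, was in 0 of the 8 windows and in 6.75% of all. These matches are letters in a window and were not measured as binding sites.

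The intensities of the 3 arrays of a type were placed on a common scale by quantile normalization, and the values below are these normalized intensities. A detection level was set for each array type, which came to 49.01 (MG-U74A), 52.84 (MG-U74B) and 61.57 (MG-U74C), and readings at or below it were raised to it before a ratio was formed. A ratio against such a reading is given as "at least". Levels of different probe sets are not comparable, so each gene is compared with itself between lines, by its brightest probe set unless stated. As a measure of error, the log2 ratios of 2 probe sets for 1 gene on 1 array type, both above the detection level, differed with a robust SD of 0.43 when AGM-s3-A9 was set against AGM-s3-A7 (from 1160 genes), 0.44 when OP9 was, and 0.46 between AGM-s3-A9 and OP9. That SD is of a difference between 2 ratios, so it is wider than the error of a single ratio. It does not include differences between cultures. Each RNA came from a whole culture, so fewer cells with a transcript and less transcript per cell cannot be told apart.

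The labelled cell type was compared with marker genes. Of 9 stromal markers 8 were above the detection level in at least 1 line and 6 in all lines. Col1a1, a fibrillar collagen gene, read 6684 in AGM-s3-A9, 3539 in OP9 and 6174 in AGM-s3-A7. For OP9 against AGM-s3-A7 its log2 ratio was -0.80, and a second probe set gave -2.78. Of 8 stromal markers compared between these lines, 3 were at least 2-fold lower in OP9 (Col3a1, Thy1 and Sparc) and 0 higher. Of all genes, 5.98% were as far down and 5.14% as far up. Thy1, a surface marker of many stromal cells, read 416 in AGM-s3-A9, 4.61 in OP9 and 206 in AGM-s3-A7. Vim, which encodes vimentin, read 21.7, 22.9 and 17.9 in the same order, below the detection level in all lines, so a low reading of a single probe set was not taken as absence of a transcript. None of 6 hematopoietic and none of 5 endothelial markers exceeded the level in any line. Of 4 epithelial markers, Cdh1 (101 in AGM-s3-A9, 106 in OP9 and 126 in AGM-s3-A7) and Epcam (85.7, 84.5 and 103 in the same order) exceeded it in all lines, and Krt8 and Krt18 in none.

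**Figure D1:**
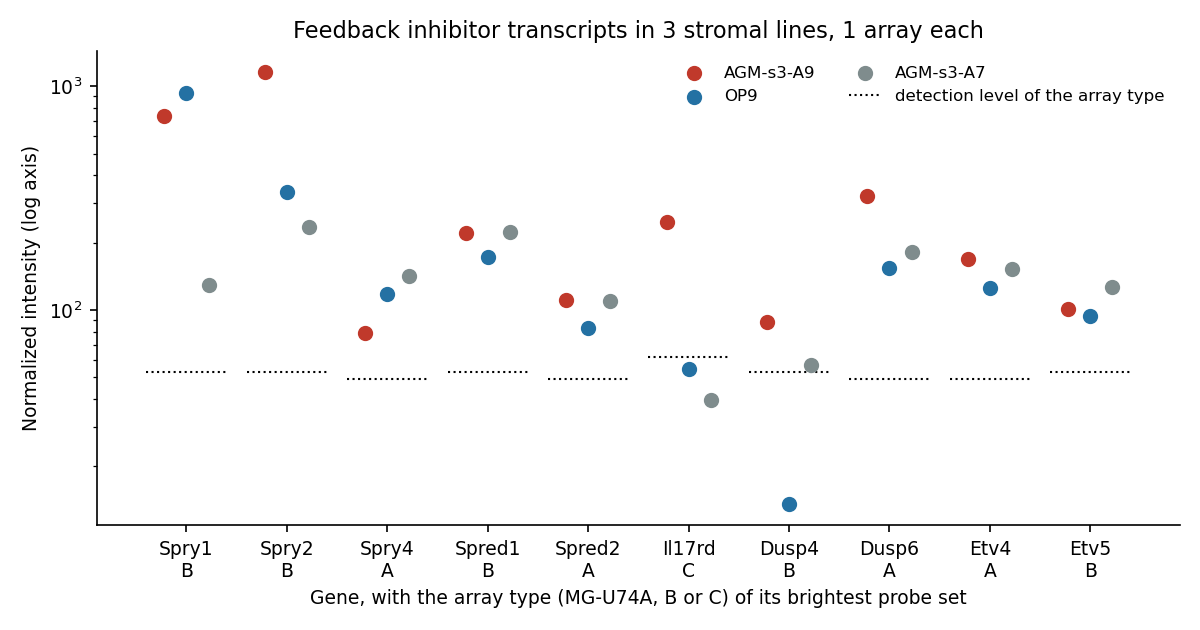
Normalized intensity (log axis) of the brightest probe set of each of the 10 genes in AGM-s3-A9, OP9 and AGM-s3-A7, 1 array per point, with the detection level of the array type as a dotted line. Spry1 is high in AGM-s3-A9 and OP9, Spry2 and Il17rd stand highest in AGM-s3-A9, and the Spred and Etv genes lie close together in all 3 lines.

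Spry1, a Sprouty gene whose product dampens signalling from growth factor receptors to Ras, read high in both supportive lines and low in the non-supportive one. Its only probe set, on MG-U74B, read 737 in AGM-s3-A9, 933 in OP9 and 129 in AGM-s3-A7. The log2 ratio of AGM-s3-A9 to OP9, the 2 supportive lines, was -0.34, smaller than the robust SD between probe sets. It was -0.98 in the values as deposited (580 in AGM-s3-A9 and 1143 in OP9). With AGM-s3-A7 as the base, the log2 ratio was 2.52 for AGM-s3-A9 (5.73-fold) and 2.86 for OP9 (7.25-fold), and both ratios share the AGM-s3-A7 array. As a description of where the gene lies, 8 of 8590 genes, Spry1 included, were at least as far up in AGM-s3-A9, and 13 of 8739 genes in OP9.

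Spry2, a well-studied Sprouty inhibitor of ERK activation, was high in AGM-s3-A9 alone. It read 1154 in AGM-s3-A9, 337 in OP9 and 235 in AGM-s3-A7 on its only probe set, also on MG-U74B. The AGM-s3-A9 reading was 4.91 times that of AGM-s3-A7 (log2 ratio 2.29) and 3.43 times that of OP9 (log2 ratio 1.78). OP9 exceeded AGM-s3-A7 by 1.43-fold, a log2 ratio of 0.52 that is close to the robust SD of 0.44. The Sprouty pair therefore differed in OP9, where Spry1 read as high as in AGM-s3-A9 and Spry2 much nearer to AGM-s3-A7.

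Spry4, the third Sprouty gene measured, did not follow the others. It read 78.6 in AGM-s3-A9, 118 in OP9 and 142 in AGM-s3-A7 on MG-U74A, so that AGM-s3-A9 was the lowest line, 1.8-fold below AGM-s3-A7 (log2 ratio -0.85). OP9 and AGM-s3-A7 were 0.26 apart, within the robust SD. In the values as deposited the 3 lines read 106, 103 and 117 in the same order, and the log2 ratio of AGM-s3-A9 to AGM-s3-A7 was -0.15. The trimmed mean of the deposited MG-U74A values was 188 for AGM-s3-A9, 122 for OP9 and 117 for AGM-s3-A7. A second probe set, on MG-U74C, was below the detection level in all lines.

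Il17rd, the Sef inhibitor, exceeded the detection level in AGM-s3-A9 only. Its single probe set, on MG-U74C, read 246 in AGM-s3-A9, 54.6 in OP9 and 39.7 in AGM-s3-A7. AGM-s3-A9 was at least 4-fold higher than either of the others, and no fold is given between OP9 and AGM-s3-A7, which were both below the level of 61.57. MG-U74C was the dimmest array type, with 15.7% to 15.9% of its named probe sets above the detection level.

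The ERK phosphatases were highest in AGM-s3-A9 by smaller margins. Dusp6, which acts on ERK in the cytoplasm, read 324 in AGM-s3-A9, 154 in OP9 and 182 in AGM-s3-A7 on MG-U74A. This is 1.78-fold above AGM-s3-A7 and 2.1-fold above OP9, just past the 2-fold mark, and the log2 difference of 0.24 between OP9 and AGM-s3-A7 is within the robust SD. A second Dusp6 probe set, on MG-U74B, did not show the margin over AGM-s3-A7, reading 55.2 in AGM-s3-A9, 24.9 in OP9 and 52.2 in AGM-s3-A7, with AGM-s3-A9 at least 1.05-fold above either line. Dusp4, a nuclear phosphatase of MAP kinases, read 88.6 in AGM-s3-A9, 13.6 in OP9 and 56.9 in AGM-s3-A7. AGM-s3-A9 was 1.56-fold above AGM-s3-A7 (log2 ratio 0.64). OP9 was below the detection level, which leaves AGM-s3-A9 at least 1.68-fold above OP9, and OP9 at least 1.08-fold below AGM-s3-A7. Without the detection level as a floor the Dusp4 log2 ratio of OP9 to AGM-s3-A7 was -2.07.

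The Spred genes, which encode membrane-associated inhibitors that bring neurofibromin to Ras, were nearly level across the lines. Spred1 had 5 probe sets on MG-U74B, of which 3 were above the detection level in all lines. The brightest read 220 in AGM-s3-A9, 173 in OP9 and 222 in AGM-s3-A7. The next read 190, 196 and 187 in the same order. The third, at 112 in AGM-s3-A9, 70.6 in OP9 and 82.8 in AGM-s3-A7, gave the widest log2 ratio of the 3, 0.67 for AGM-s3-A9 against OP9. Spred2 read 111 in AGM-s3-A9, 83.2 in OP9 and 110 in AGM-s3-A7 on MG-U74A, while its 2 probe sets on MG-U74C were below the detection level throughout. For both genes the AGM lines differed by at most 0.01 on the log2 scale by the brightest probe set, and OP9 stood 0.36 and 0.40 below AGM-s3-A7, within the robust SD. In the values as deposited the Spred2 log2 ratio of AGM-s3-A9 to OP9 was 1.06.

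The 2 ETS factor genes read at similar levels in the 3 lines. Etv4 read 169 in AGM-s3-A9, 125 in OP9 and 153 in AGM-s3-A7 on a probe set whose suffix marks possible cross-hybridisation. Its other probe set, which has no such suffix, read 45.8 in AGM-s3-A9, 14.8 in OP9 and 26.1 in AGM-s3-A7, all below the detection level. Etv5 read 101 in AGM-s3-A9, 94.4 in OP9 and 127 in AGM-s3-A7, with the supportive lines 0.32 and 0.42 below AGM-s3-A7 on the log2 scale. All these differences are within the robust SD between probe sets, and each line has 1 array. The order of the lines is therefore not established for either gene. In the values as deposited the Etv4 log2 ratio of AGM-s3-A9 to OP9 was 1.08.

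**Figure D2:**
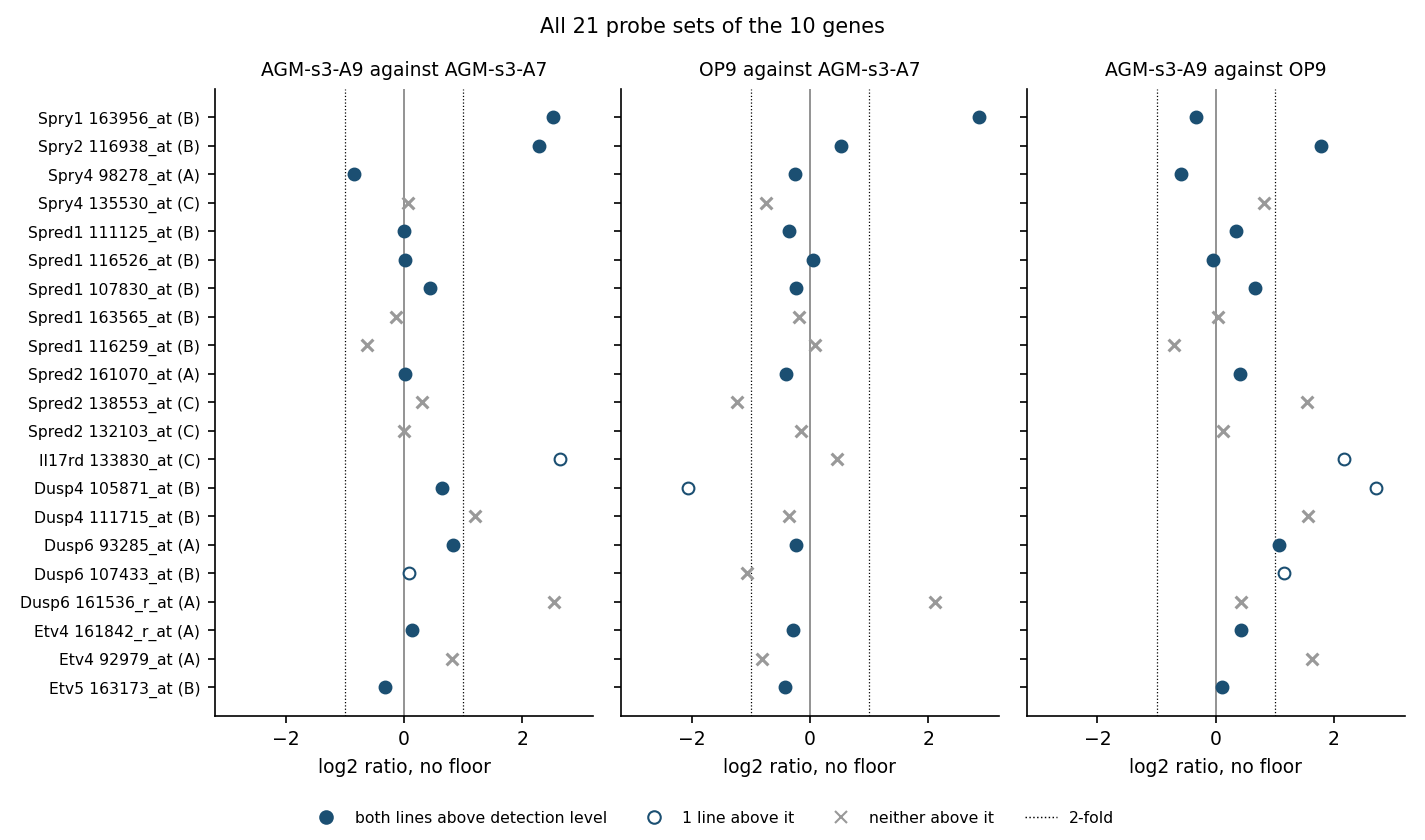
Log2 ratio without a floor (horizontal axis) for each of the 21 probe sets, with its array type in brackets, in the 3 comparisons; filled points have both lines above the detection level, open points 1 line and crosses neither. Of the 21, 10 were above it in all 3 lines and 8 in none, and the widest ratios with both lines above it are those of Spry1 and Spry2.

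Counted together, 3 of the 10 genes (Spry1, Spry2 and Il17rd) stood 2-fold or more above AGM-s3-A7 in AGM-s3-A9, where 3.08% of 8590 genes did. None was at least 2-fold lower, where 2.28% of all genes were. Between OP9 and AGM-s3-A7, 9 of the 10 genes could be compared, Il17rd being below the detection level in both. Of these 9, 1 was at least 2-fold higher, Spry1, against 5.14% of 8739 genes, and 0 were lower, against 5.98%. Between AGM-s3-A9 and OP9, 3 genes were at least 2-fold higher (Spry2, Il17rd and Dusp6), against 6.58% of 8760 genes, and 0 lower, against 5.06%. The family was chosen on these contrasts, so the shares are given for scale and nothing is read from them. Il17rd entered the comparisons through AGM-s3-A9 alone. The median log2 ratio to AGM-s3-A7 was 0.39 in AGM-s3-A9 (all genes compared 0.01) and -0.26 in OP9 (all genes 0.04). For AGM-s3-A9 over OP9 it was 0.42 (all genes -0.02).

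**Figure D3:**
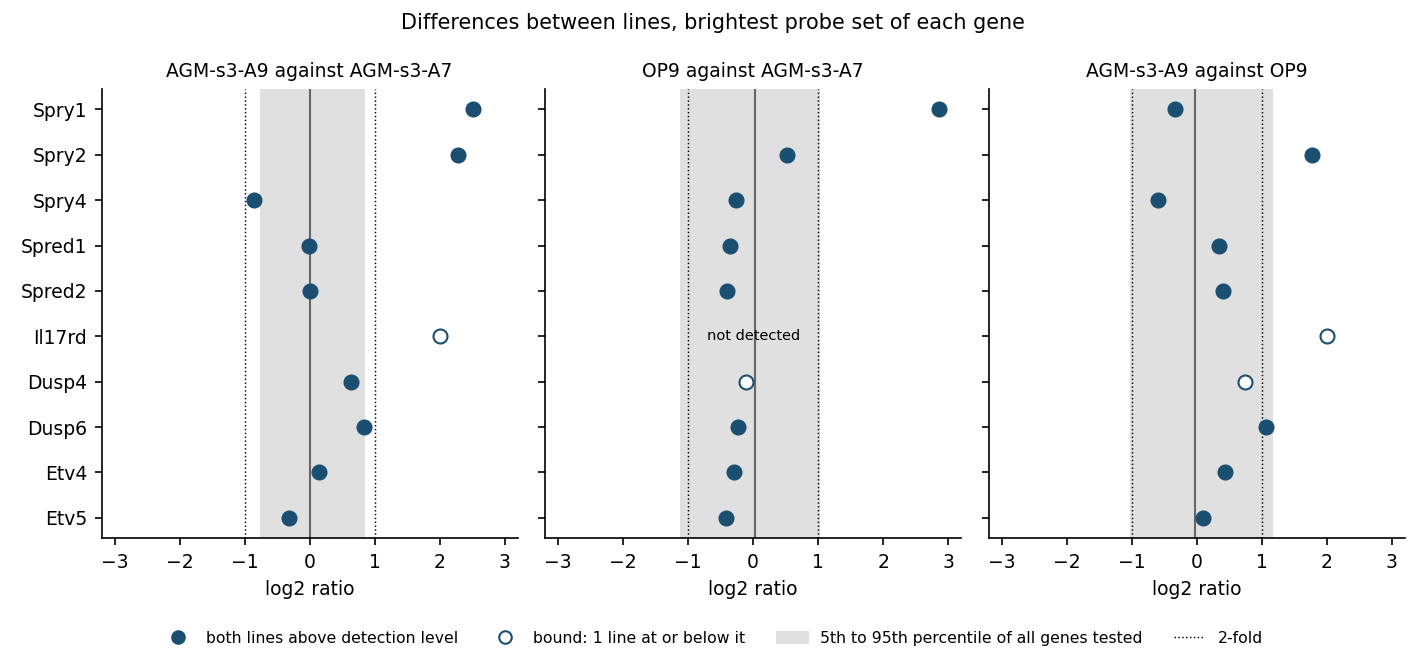
Log2 ratio (horizontal axis) of the brightest probe set of each gene in the 3 comparisons, with open points for bounds, a grey band from the 5th to the 95th percentile of all genes compared and a grey line at their median. In the panel of AGM-s3-A9 over AGM-s3-A7 the band runs from -0.75 to 0.83, and Spry1, Spry2 and Il17rd lie beyond it at 2.52, 2.29 and 2.0.

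The scale of the arrays bears on these counts. With the values as deposited, 12.8% of all genes were at least 2-fold up and 3.24% down in AGM-s3-A9 relative to AGM-s3-A7, and Dusp6 joined the 3 higher genes at a log2 ratio of 1.58. Scaled to the hybridization controls, 7.18% were higher and 1.34% lower in that comparison, Dusp6 stood at 1.28, and in OP9 7.98% of all genes were higher and 4.53% lower than in AGM-s3-A7. Spry1 and Spry2 stayed 2-fold or more above AGM-s3-A7 in AGM-s3-A9 under all 11 alternatives tried, and Il17rd under all 10 that include MG-U74C. Their log2 ratios ranged from 2.14 to 2.64, from 1.98 to 2.48 and from 1.80 to 2.63.

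**Figure D4:**
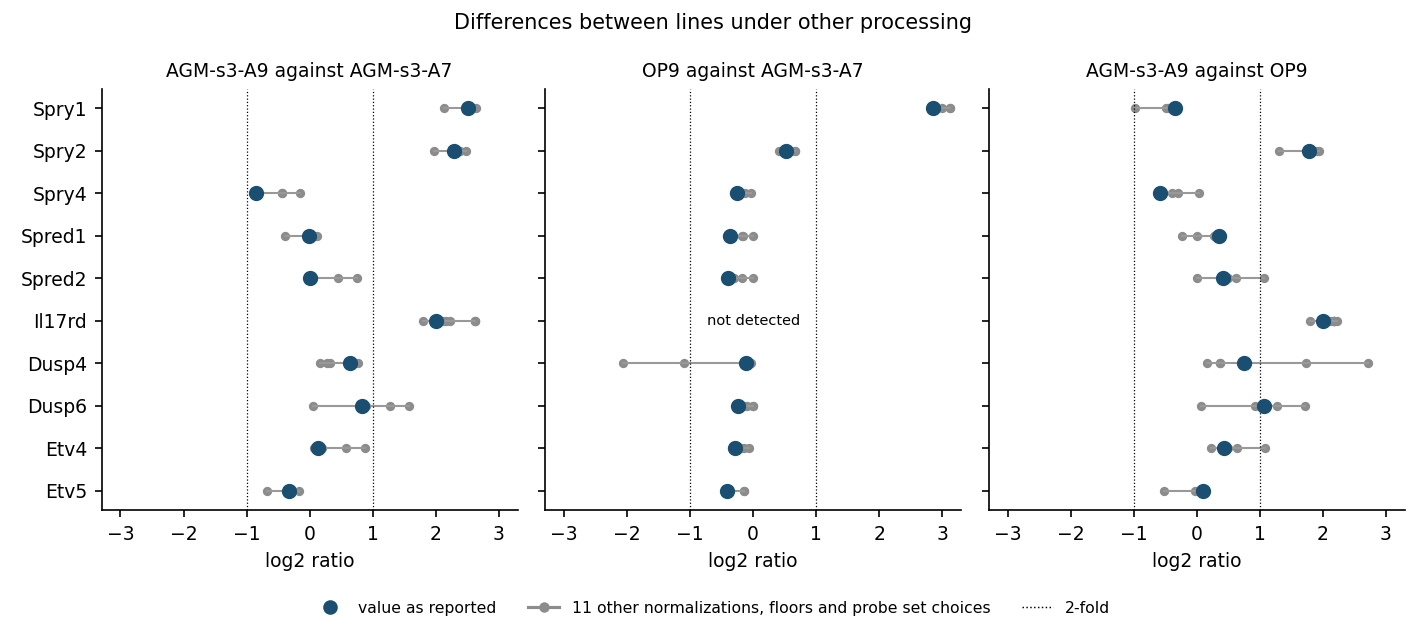
Log2 ratio (horizontal axis) of each gene as reported, as a large point, and under up to 11 other normalizations, floors and probe set choices, as small points joined by a line. Spry1, Spry2 and Il17rd stay right of the 2-fold line for AGM-s3-A9 over AGM-s3-A7, whereas Dusp6 falls on both sides of it, from 0.06 to 1.58.

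Other genes that respond to ERK were taken from a list of 21 made by pathway role. Set against AGM-s3-A7, 5 of 19 compared were at least 2-fold up in AGM-s3-A9 and 1 as far down, beside 3.08% and 2.28% of all genes, with a median log2 ratio of 0.40. Egr2, an immediate early transcription factor gene, read 248 in AGM-s3-A9, 66.6 in OP9 and 46.4 in AGM-s3-A7, so that AGM-s3-A9 was at least 5.05-fold above AGM-s3-A7. Its relative Egr1 read 633 in AGM-s3-A9, 290 in OP9 and 227 in AGM-s3-A7. Phlda1, another gene induced by ERK, read 454 in AGM-s3-A9, 141 in OP9 and 142 in AGM-s3-A7, so that AGM-s3-A9 stood 3.2-fold above AGM-s3-A7. In these 3 genes AGM-s3-A9 stood well above the other lines, as it did for Spry2.

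Fos, which encodes a subunit of AP-1, instead read high in both supportive lines, as Spry1 did. It read 139 in AGM-s3-A9, 139 in OP9 and 46.0 in AGM-s3-A7, at least 2.84-fold up in AGM-s3-A9 and 2.83-fold in OP9. The fifth gene higher in AGM-s3-A9 was Fosl1, another AP-1 subunit, at 158 in AGM-s3-A9, 76.8 in OP9 and 63.2 in AGM-s3-A7. The 1 lower gene was Myc, at 85.5 in AGM-s3-A9, 169 in OP9 and 177 in AGM-s3-A7. Fosl1 and Myc are named after their values were seen. The log2 ratio of Myc was -1.05, and -0.05 in the values as deposited. By the median over their probe sets Egr1 and Fos were under 2-fold in AGM-s3-A9, at 0.74 and 0.75. The other probe set of each detected the gene in neither AGM line and entered the median as a ratio of 0. These medians are therefore no separate measurement of a weaker difference. Egr2 was at 0.54 with a floor at the 75th percentile of the array type. The other 13 genes compared were under 2-fold between the AGM lines. Among them, and likewise named after their values were seen, Hbegf had a log2 ratio of -0.89, Ier2 of 0.84 and Klf6 of -0.77. A second Hbegf probe set gave 0.31, in the other direction. Junb gave -0.11 by its brightest probe set and 1.43 by a second one.

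In OP9 against AGM-s3-A7, 4 of 18 genes of that list were at least 2-fold higher and 1 lower, with a median of 0.17. Of all genes, 5.14% were as far up and 5.98% as far down, so the 1 lower gene is about the share seen over all genes. The cyclin gene Ccnd1 was 3.12-fold higher, at 871 in OP9 and 279 in AGM-s3-A7, and its other 2 probe sets gave log2 ratios of 1.22 and at least 1.95. The transcription factor gene Klf4 read 509 in OP9 and 178 in AGM-s3-A7, a log2 ratio of 1.51. By the median over its probe sets the ratio was 0.76. Its other probe set detected Klf4 in neither of these lines and entered that median as a ratio of 0. Ier3, an immediate early gene, was the lower one, at 103 in OP9 and 466 in AGM-s3-A7. Between AGM-s3-A9 and OP9, 5 of 20 were higher and 3 lower (6.58% and 5.06% of all genes), with Ier3 (502 in AGM-s3-A9 and 103 in OP9) widest in one direction and Klf4 (160 in AGM-s3-A9 and 509 in OP9) in the other. ERK-responsive genes thus included members highest in AGM-s3-A9 and members highest in OP9.

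**Figure D5:**
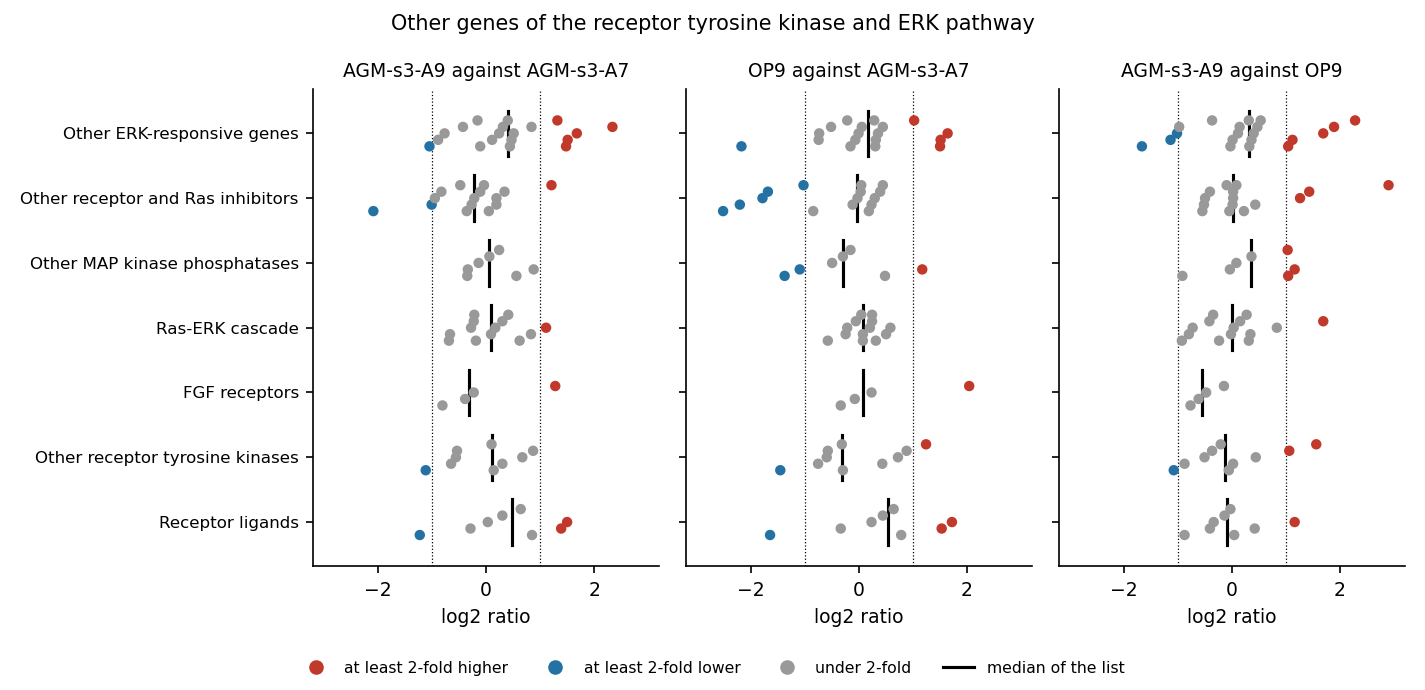
Log2 ratios (horizontal axis) of other pathway genes above the detection level in at least 1 line of the pair, by list, with the list's median as a black bar and genes at or past 2-fold in red (higher) or blue (lower). The ERK-responsive genes reach 2.34 for AGM-s3-A9 over AGM-s3-A7. In that panel 12 of 13 genes of the Ras-ERK cascade stay under 2-fold, where 3.08% of all genes were 2-fold higher and 2.28% lower.

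Inhibitors of receptors and Ras outside the family included genes higher and genes lower than in AGM-s3-A7. Relative to AGM-s3-A7, 1 of 15 compared was at least 2-fold up and 2 down in AGM-s3-A9, where 3.08% and 2.28% of all genes were. In OP9 0 were up and 5 down, where 5.14% and 5.98% of all genes were. Errfi1, a feedback inhibitor of the epidermal growth factor receptor, read 2069 in AGM-s3-A9, 276 in OP9 and 892 in AGM-s3-A7, so that AGM-s3-A9 was 2.32-fold above the non-supportive line and OP9 3.23-fold below it. Its second probe set gave log2 ratios of 1.37 and -1.06 for these comparisons. The receptor itself, Egfr, read 430 in AGM-s3-A9, 146 in OP9 and 402 in AGM-s3-A7. Cav1, which encodes the scaffold of caveolae, read 118 in AGM-s3-A9, 87.8 in OP9 and 503 in AGM-s3-A7. Socs2, an inhibitor of cytokine signalling, was 2.02-fold lower in AGM-s3-A9 (123, with 248 in AGM-s3-A7), a log2 ratio of -1.01 that was -0.27 in the values as deposited and under 2-fold in 5 of the 11 alternatives. Rasal2 and Socs3 were among those lower in OP9, at 41.9 against 245 and 73.2 against 253 in AGM-s3-A7. A second Rasal2 probe set was below the detection level in OP9 and gave only a bound of -0.31, and Socs3 was at -0.57 with a floor at the 75th percentile.

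Of 9 further MAP kinase phosphatases, 7 could be compared. None reached 2-fold in AGM-s3-A9 against AGM-s3-A7, where 3.08% of all genes were up and 2.28% down. In OP9 1 was up and 2 were down (5.14% and 5.98% of all genes). Between AGM-s3-A9 and OP9, 3 of 7 were at least 2-fold higher and 0 lower (6.58% and 5.06% of all genes). The higher genes were Dusp1, Dusp14 and Dusp2, the last below the detection level in OP9. By the median over probe sets their log2 ratios were 0.51, 0.00 and 0.52. Dusp1, an immediate early phosphatase, read 570 in AGM-s3-A9, 280 in OP9 and 728 in AGM-s3-A7, and Dusp14 read 175, 78.6 and 168 in the same order, so that OP9 was the lowest line for both. Dusp16 was highest in OP9, at 110 against 40.9 in AGM-s3-A7. By the median over their probe sets none of Dusp1, Dusp14 and Dusp16 reached 2-fold in OP9 against AGM-s3-A7. The log2 ratios were then -0.69 for Dusp1, 0.00 for Dusp14 and 0.58 for Dusp16. Their other probe sets detected the gene in neither OP9 nor AGM-s3-A7 and entered the median as ratios of 0. The smaller medians are therefore no separate measurement of these genes. Genes of the cascade from Grb2 to ERK were counted in the same way. Of 24 genes listed, 15 had a probe set with 1 symbol and 13 could be compared between AGM-s3-A9 and AGM-s3-A7, of which 1 was past 2-fold, the scaffold gene Ksr1, at 170 in AGM-s3-A9, 44.5 in OP9 and 79.0 in AGM-s3-A7. A second Ksr1 probe set gave a log2 ratio of 0.72 where the first gave 1.11, and in the values as deposited the first was under 2-fold as well. Between OP9 and AGM-s3-A7 0 of 13 reached 2-fold. Relative to AGM-s3-A7, 3.08% of all genes were at least 2-fold up and 2.28% down in AGM-s3-A9. In OP9 these shares were 5.14% and 5.98%. With so few genes, the counts do not set the cascade apart from all genes. The closest relatives of the family gave little signal, with Spry3 below the detection level in all lines and Spred3 at 83.5 in AGM-s3-A9, 69.8 in OP9 and 84.8 in AGM-s3-A7.

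Among FGF receptors, Fgfrl1, an FGF-binding receptor that lacks the kinase domain, followed Spry1 in order, at 429 in AGM-s3-A9, 729 in OP9 and 177 in AGM-s3-A7. Its log2 ratio of AGM-s3-A9 to AGM-s3-A7 was 1.28, and 0.93 in the values as deposited. Fgfr1, a receptor with a kinase domain, read 303 in AGM-s3-A9, 421 in OP9 and 532 in AGM-s3-A7. Fgfr2, another, read 591 in AGM-s3-A9, 907 in OP9 and 774 in AGM-s3-A7, so neither kinase was higher in both supportive lines. Of other receptor tyrosine kinases, 0 of 9 were at least 2-fold up in AGM-s3-A9 against AGM-s3-A7 and 1 down (3.08% and 2.28% of all genes). That gene was Igf1r, at -1.12, and its other probe sets gave -0.31 to -0.65. In OP9 1 of 10 was up, Ddr2, and 1 down, Egfr (5.14% and 5.98%). In AGM-s3-A9 over OP9 2 of 10 were up, Egfr and Erbb2, and 1 down, Met (6.58% and 5.06%). Of the ligand genes, 2 of 8 were at least 2-fold up in AGM-s3-A9 relative to AGM-s3-A7, Kitl and Hgf, and 1 was down, Gdnf (3.08% and 2.28% of all genes). Gdnf was at -0.53 in the values as deposited. Hgf, the ligand of the receptor Met, read 128 in AGM-s3-A9, 57.6 in OP9 and 29.9 in AGM-s3-A7, so it too was highest in AGM-s3-A9. Fgf10 read 111 in AGM-s3-A9, 204 in OP9 and 31.3 in AGM-s3-A7. Whether any of these ligands or receptors bears on the Sprouty levels was not tested.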

How the data were processed

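Total RNA of 3 cultured lines was labelled from 6 ug and hybridised to 9 arrays, per the labels' protocols. For each probe set the authors deposited 1 intensity on a linear scale. How it was summarised, background-corrected and scaled is not given in the sources used here. The 2% trimmed means of the 3 arrays of a type differed by 49.7% to 61.1%, above the 5% limit set for leaving them as they are, so log2 intensities were quantile-normalized within each type (36899 probe sets). Quantile normalization would remove a general shift between lines. The detection level is the higher of the array type's median and the 95th percentile of 34 control probe sets that should find no target. Genes were named from the platform annotation, by probe sets with 1 symbol, and the brightest represents a gene. A difference counted at 2-fold or more, without a test. The 10 genes and all lists were chosen with earlier results of these data known. Named are all 10 genes, up to 4 genes per list and comparison with the widest difference past 2-fold, and the 5 genes nearest to Spry1 and to Il17rd. The calculation was tested on simulated data. Python 3.11.15, pandas 2.3.3 and limma 3.58.1 (for cyclic loess) were used.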

Additional observations from a re-analysis of the deposited data

How the results depend on the processing

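No paired analysis was possible because each line has 1 array per array type, and for the same reason no array could be left out. Of 11 alternatives, 10 were planned and scaling to hybridization controls was added after seeing the data. No family gene or named list gene past 2-fold changed direction, and of 1229 single-gene ratios under the alternatives 1000 moved by less than the robust SD of a half-difference between probe sets. The number of family genes higher in AGM-s3-A9 than in OP9 was 5 instead of 3 with the values as deposited (Spred2 and Etv4 added), and Dusp4 was the 1 gene 2-fold below AGM-s3-A7 in OP9 with the floor at the median of the array type or with no floor, instead of 0. Dusp6 was under 2-fold in AGM-s3-A9 against OP9 with the floor at the 75th percentile and by the median over its probe sets. The median over probe sets counts those that detected a gene in neither line as ratios of 0, which draws it toward 0. For Dusp6 it was 0.06, the bound given by the second probe set. For the ERK-responsive list, AGM-s3-A9 over AGM-s3-A7, 8 genes were higher and 0 lower with the values as deposited, 3 and 0 with the floor at the 75th percentile, 3 higher by the median over probe sets, and 0 lower with hybridization control scaling. For AGM-s3-A9 against OP9, 3 were higher with the floor at the 75th percentile and 1 lower with the values as deposited. For OP9 against AGM-s3-A7, 2 were higher with the floor at the 75th percentile or by the median over probe sets, and 2 were lower with no floor. The cause was not tested. The median log2 ratio of all genes was 0.24, 0.09 and 0.19 in the values as deposited and 0.23, 0.21 and 0.02 with hybridization control scaling (AGM-s3-A9 over AGM-s3-A7, OP9 over AGM-s3-A7, AGM-s3-A9 over OP9). Signal over background limits Il17rd, Dusp4 and the second probe sets of Dusp6, Etv4, Spry4 and Spred2.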

Other observations

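The genes whose pattern over the 3 lines was most like that of Spry1, by Euclidean distance of the log2 ratios of both supportive lines to AGM-s3-A7 among 9002 other genes, were Mdfi, Il1rn, Lpl, Psrc1 and Gpc6. The nearest, Mdfi, which encodes an inhibitor of myogenic transcription factors, read 268 in AGM-s3-A9, 292 in OP9 and 14.1 in AGM-s3-A7, at a distance of 0.29, on a probe set with a suffix for possible cross-hybridisation. Psrc1, a gene of the mitotic spindle, read 176 in AGM-s3-A9, 329 in OP9 and 47.3 in AGM-s3-A7. For Mdfi and Psrc1 the AGM-s3-A7 reading was below the detection level. Their distances rest on that reading raised to the level, so the place of Mdfi as nearest carries no meaning.

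Nearest to Il17rd were Trpv2, Lama1, Pkdcc, Phlda1 and Vit, at distances of 0.26 to 0.32. Il17rd was below the detection level in OP9 and AGM-s3-A7, as was Vit, and Trpv2 and Lama1 were below it in OP9, so these distances rest on readings raised to the level and the order among the 5 carries no meaning. Lama1, a laminin chain gene of basement membranes, read 176 in AGM-s3-A9, 43 in OP9 and 52.4 in AGM-s3-A7. Pkdcc, which encodes a secreted tyrosine kinase, read 308 in AGM-s3-A9, 59.2 in OP9 and 72.9 in AGM-s3-A7. Phlda1 is the only one of the 5 that is also in the ERK-responsive list. With 3 arrays per pattern, such likeness describes these arrays and was not tested.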
